A study of Homo sapiens with 39 samples.

Results

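Vitamin A is taken up, carried, metabolised and sensed by a small group of gene products, and 9 of these genes are described here in 2 melanoma lines. The genes are STRA6, CRABP2, DHRS3, RARA, RARB, RARG, RXRA, RXRB and RXRG, found by symbol, and they are 9 of the 60671 genes in the deposited gene table. They were chosen by 2 measured changes, the lower RXRG in A375 clones lacking the region R1 and the higher STRA6 in WM115 clones lacking the region R4, each against wild type. Those values are therefore given below as a description, without a test. Other tests that use the A375 WT libraries for RXRG or the WM115 WT libraries for STRA6 are not independent of this choice.

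RNA-seq libraries were made from the established melanoma cell lines A375 and WM115, in which a regulatory region near SOX10 was deleted. SOX10 is the transcription factor that directs neural crest cells into the melanocyte and glial lineages. A375 was sampled as wild type (WT, 4 libraries), as R1 deletion clones 1.1 (3) and 1.2 (4), and as R4 deletion clones 4.1 (4) and 4.2 (3). WM115 was sampled as WT (4), R1 deletion clones 1.1 (5) and 1.2 (3), R4 deletion clones 4.1 (3) and 4.2 (3), and clone 1.3 (3), whose title names R1 and whose genotype label names R4, so that it was kept apart from both regions. No drug, retinoid or time course is named in the labels. Each clone group is 1 clone, and the labels do not say that its libraries came from separate cultures. A p-value for a clone thus rests on the spread between libraries, pooled over all groups of its line, and that spread may be technical.

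Retinol bound to its serum carrier enters cells through the membrane receptor STRA6 and is oxidised first to retinal and then to retinoic acid, while the reductase DHRS3 turns retinal back into retinol. CRABP2 carries retinoic acid to the nucleus. There the retinoic acid receptors (RARA, RARB, RARG) bind DNA as pairs with the retinoid X receptors (RXRA, RXRB, RXRG), which also pair with the receptors for thyroid hormone, vitamin D and fatty acids. RXRG has a narrower tissue range than the other RXR genes and is known in melanocytes and neural crest derivatives.

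Values are TPM, a share of each library corrected for transcript length, so levels can be set beside each other across genes. The read depth of the libraries is unknown. SOX10 ranged from 381 to 876 TPM over the 18 A375 libraries and from 9.56 to 553 TPM over the 21 WM115 libraries, the lowest being replicate 3 of WM115 clone 1.2, where the summed melanocytic markers were 61.8 TPM against 1117 and 1360 TPM in its other libraries. Of 15 melanocytic markers, 7 to 8 were at 1 TPM or above in A375 libraries and 8 to 13 in WM115. MLANA reached at most 0.976 TPM and TYR at most 0.023 TPM in A375. PTPRC, a leukocyte marker, reached at most 0.137 TPM in A375 and 0.483 TPM in WM115, and KRT5, a keratinocyte marker, at most 0.731 TPM in A375 and 0 in WM115. Other markers of the same cell types were higher. CD68 (leukocyte) ranged from 18.2 to 165 TPM in A375 and from 225 to 757 TPM in WM115. KRT10 (keratinocyte) ranged from 40.0 to 98.4 TPM in A375 and from 38.8 to 76.7 TPM in WM115. In A375, LYZ was at 1 TPM or above in 18 of 18 libraries and KRT14 in 15 of 18. Summed fibroblast markers were 4.82 to 21.8 TPM in A375 and 379 to 866 TPM in WM115, where COL1A2 alone ranged from 365 to 857 TPM. Mitochondrial transcripts made up 0.968% to 4.92% of A375 libraries and 4.71% to 19.4% of WM115 libraries, and ribosomal protein genes 11.1% to 12.8% of the WM115 WT libraries against 15.1% to 17.4% of those of the WM115 clones, apart from replicate 3 of clone 1.3 with 10.6%. The part of these differences in the results was not tested. In bulk RNA, fewer cells expressing a gene and less of its RNA per cell cannot be told apart.

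The 9 genes fell into a steady and a variable set. RXRB was the steadiest in A375 and WM115, with highest-to-lowest ratios of 1.52 and 1.63 across the libraries of a line. RARA, RARG and RXRA stayed within ratios of 1.95 to 2.57. DHRS3 ranged 4.61-fold in A375 and 3.72-fold in WM115. RXRG ranged 138-fold in A375 and 795-fold in WM115, and STRA6 ranged 21.0-fold and 779-fold. CRABP2 (84.6-fold and 27.5-fold) and RARB (22.3-fold and 9.27-fold) also spread widely. No member was listed at 0 in any library.

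**Figure D1:**
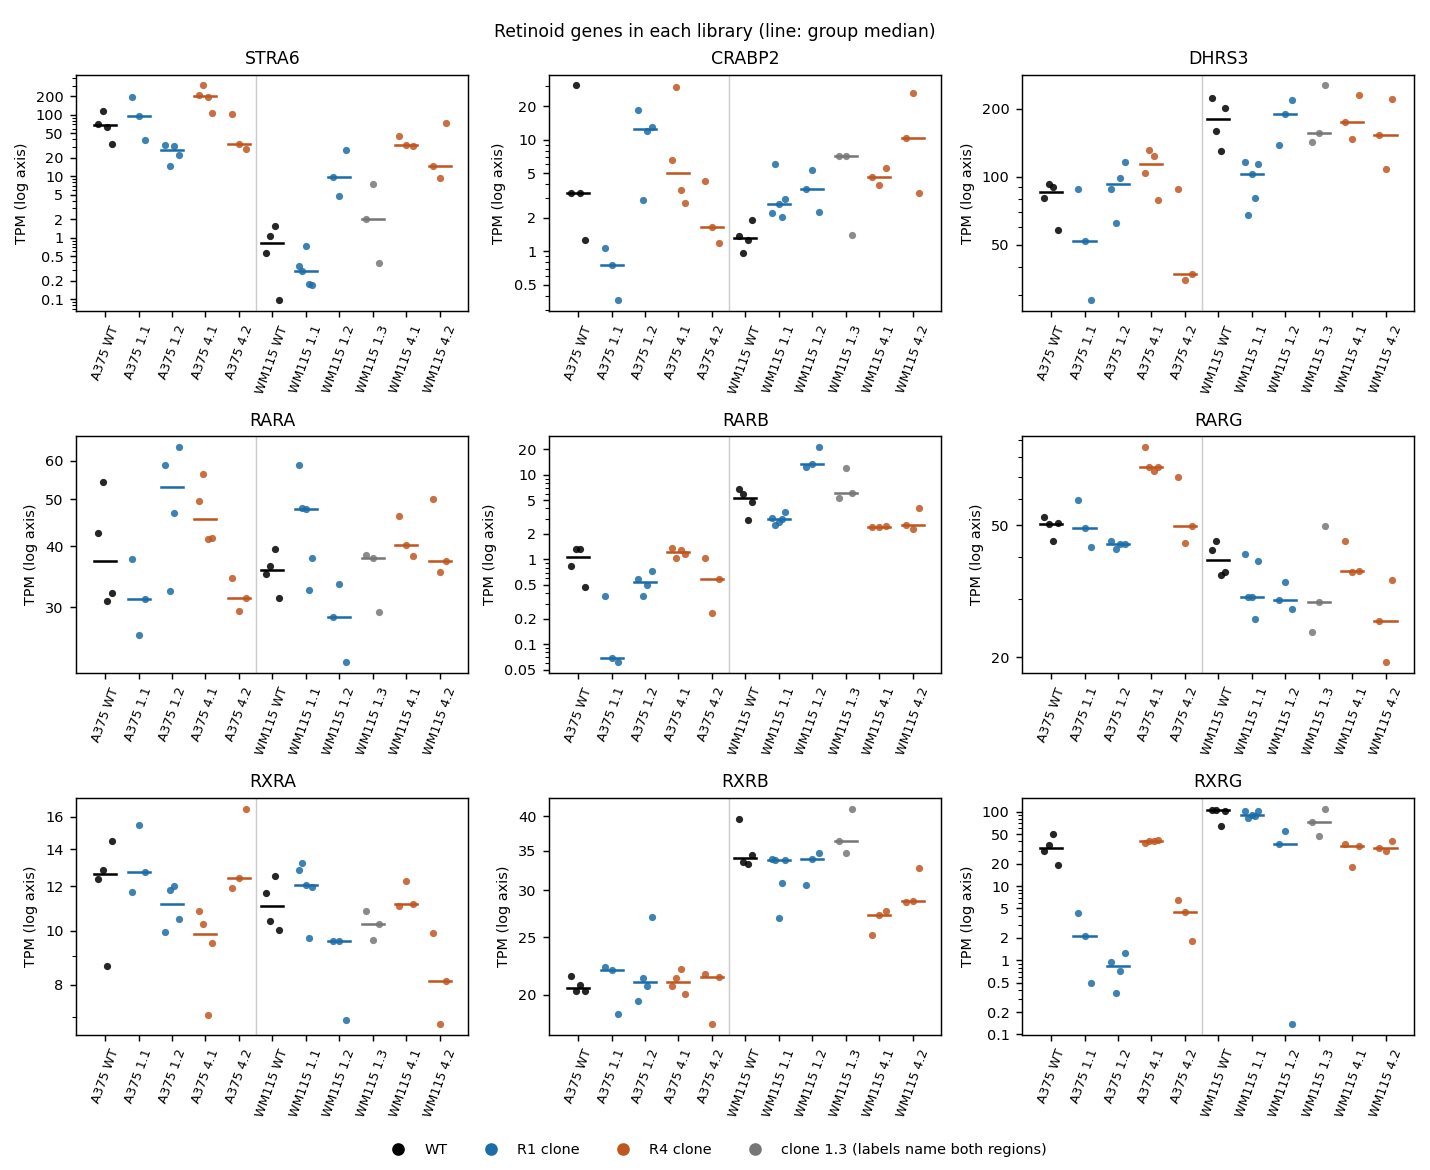
TPM of each of the 9 genes in all 39 libraries, on a log axis, with 1 point per library and a line at the median of each group (WT black, R1 clones blue, R4 clones orange, clone 1.3 grey). RXRG and STRA6 spread over the widest ranges in WM115 (0.138 to 110 TPM and 0.095 to 74.0 TPM), while RXRB kept to 17.8 to 27.1 TPM in A375 and 25.2 to 41.2 TPM in WM115.

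Each clone was compared with WT of its line by limma on log2(TPM + 1), with Benjamini-Hochberg adjustment over all genes tested in the comparison. All 9 genes had at least 1 TPM in at least 3 libraries of each line and so were tested in both, although STRA6 in WM115 and RARB in A375 met this through clone libraries, since 2 of the WT libraries reached 1 TPM in each case. Calls required both an adjusted p below 0.05 and a log2 difference of 1 or more in either direction. Differences on this scale understate the change of genes at low TPM. Where all libraries of a clone are said below to lie above or below WT, the share of all genes that did so was not computed. In WM115 clones 1.1, 1.2, 4.1 and 4.2, 34.3% to 37.1% of all genes had an unadjusted limma p under 0.05. RXRG was the 1 gene of the 9 called in A375 clone 1.1, where 0.731% of all genes were called, and in clone 1.2, where 4.01% were, and these are the values that chose it. In A375 clone 4.2 RXRG was again the 1 gene called, beside 0.473% of all genes. In A375 clone 4.1 limma called 0 of the 9 (0.653% of all genes), with 2 at an unadjusted p under 0.05. That fit did not pair this clone with WT by replicate number. With the replicate number as a block, limma called 1 of the 9, STRA6 (1.55, adjusted p = 0.000456). The share of all genes called with the block was not recorded. In WM115 clone 1.2, 3 of 9 were called, RXRG, STRA6 and RARB, against 7.61% of all genes. WM115 clones 1.1 and 1.3 had 0 of 9 called by limma (4.88% and 0.618% of all genes), with 2 and 1 at an unadjusted p under 0.05. STRA6 was the 1 gene called in WM115 clone 4.1 (7.57% of all genes), and STRA6 and CRABP2 were the 2 called in clone 4.2 (6.6% of all genes), where the STRA6 values chose the genes and nothing is read from these shares.

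Clones that share a line and a labelled deletion were also compared with each other. In A375, clones 1.1 and 1.2 differed in 2 of the 9 genes, STRA6 and CRABP2, beside 6.16% of all genes, and clones 4.1 and 4.2 in 2, RXRG and STRA6, beside 2.23%. In WM115, clones 1.1 and 1.2 differed in 3, RXRG, STRA6 and RARB, beside 11.8% of all genes. Between WM115 clones 4.1 and 4.2, limma called 0 of the 9 (2.63% of all genes), with 2 at an unadjusted p under 0.05.

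**Figure D2:**
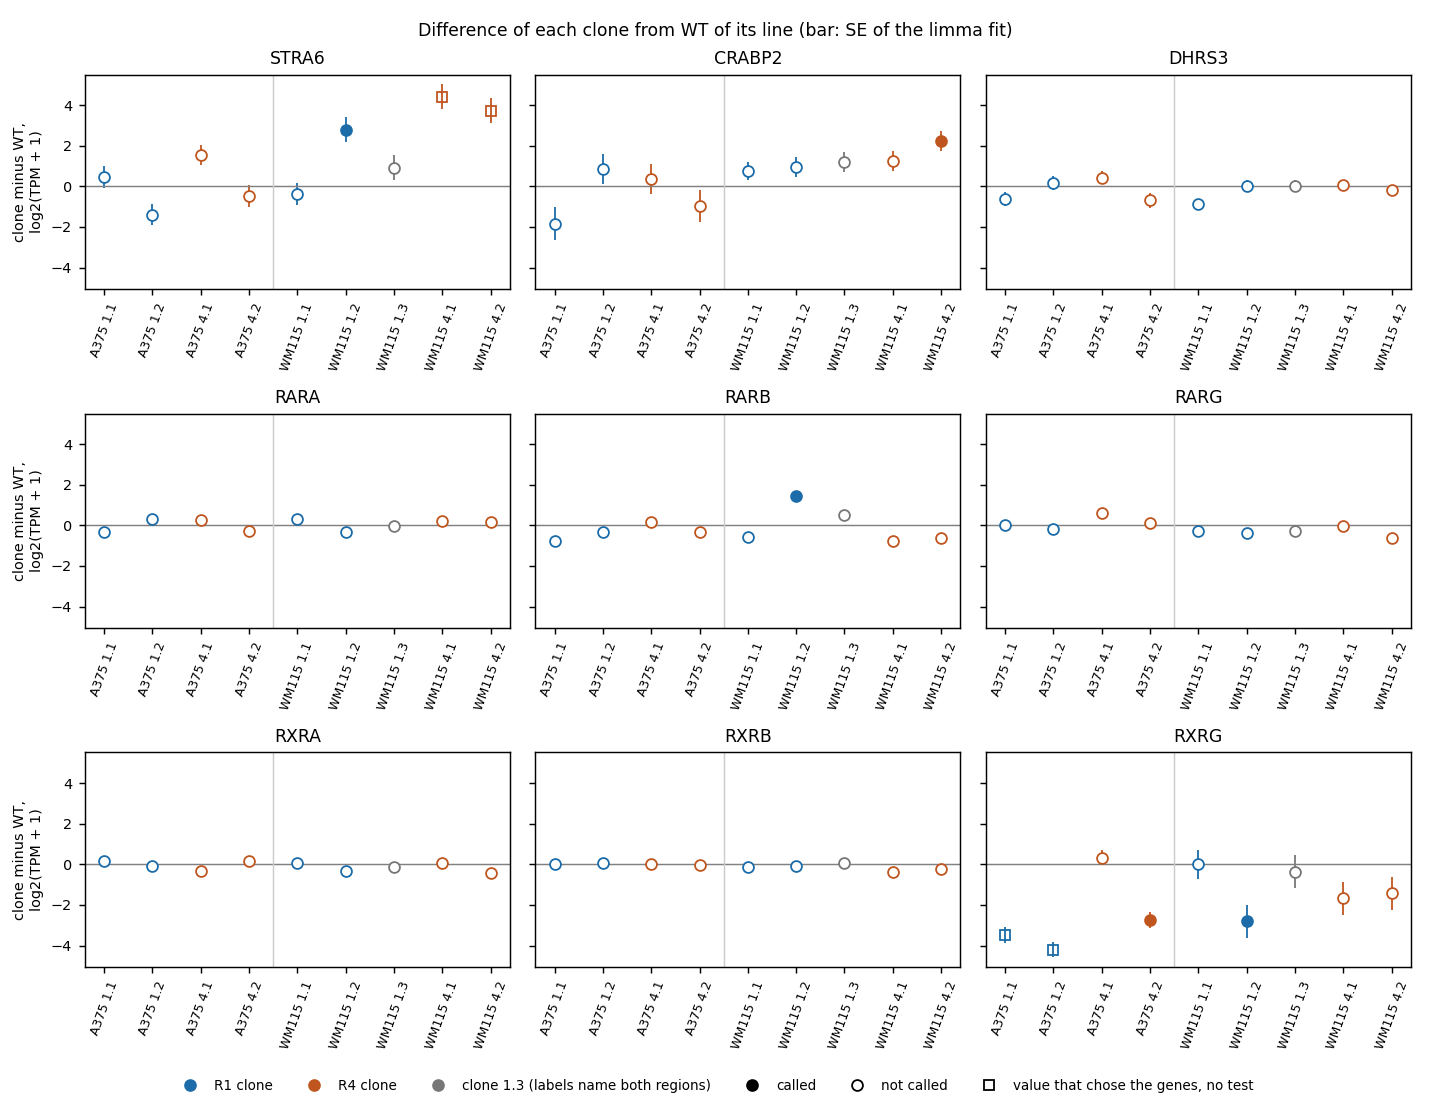
Log2 difference from WT of the same line (y axis, log2(TPM + 1) scale, bar = standard error) for the 9 genes in each of the 9 clones. Filled points were called, open points were not, and open squares are the RXRG and STRA6 values that chose the genes. RXRG lies between -2.75 and -4.20 in 3 of the 4 A375 clones and at 0.33 in clone 4.1, and STRA6 lies at 2.79 or above in WM115 clones 1.2, 4.1 and 4.2.

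STRA6, the cell-surface receptor for retinol bound to its carrier, lies on the minus strand of chromosome 15 (GRCh38, chr15:74179466-74212267). It separated the WT lines more than any other of the 9 genes. In A375 WT its 4 libraries read 72.6, 115, 62.7 and 33.3 TPM, a mean of 70.9 ± 33.9 (SD, n = 4). In WM115 WT they read 0.555, 1.08, 1.53 and 0.095 TPM, a mean of 0.817 ± 0.626 (SD, n = 4). The ranges did not overlap, and the log2 difference of WM115 from A375 was -5.25 (SE 0.371, limma adjusted p = 3.93e-06). The WM115 WT libraries are also the reference of the comparison that chose STRA6, so this p-value is not independent of the choice.

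In WM115 the clones differed in STRA6. Clone 4.1 read 45.3, 32.7 and 31.5 TPM, and clone 4.2 read 14.5, 9.41 and 74.0 TPM. All 6 R4 libraries stood above the highest WT library, with group means 44.7 and 39.9 times the WT mean and log2 differences of 4.42 and 3.73 (the values that chose the gene). The clone 4.2 mean of 32.6 ± 35.9 TPM (SD, n = 3) rests largely on replicate 3. Clone 1.2 of the R1 deletion read 9.67, 4.83 and 26.8 TPM, also all above WT. Its log2 difference was 2.79 (SE 0.615, limma adjusted p = 0.00525), and without replicate 3, the library with low SOX10, it was 2.19 with an adjusted p of 0.0548. With the replicate block it was 2.57 (limma adjusted p = 0.095). STRA6 met the test filter in WM115 through clone libraries, which can favour calls that involve clone 1.2. Clone 1.1 of the same deletion read 0.350, 0.288, 0.736, 0.176 and 0.168 TPM, within the WT range, with a difference of -0.38 (adjusted p = 0.651). The R1 clones thus differed from each other, by -3.17 for clone 1.1 against clone 1.2 (SE 0.588, limma adjusted p = 0.00053), and this call was kept in 18 of 18 alternative settings. Clone 1.3 read 1.98, 7.62 and 0.390 TPM and overlapped WT.

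In A375 STRA6 was already high and the clones fell on either side of WT. Clone 4.1 read 212, 304, 193 and 109 TPM, and clone 4.2 read 105, 33.9 and 28.0 TPM. The 2 R4 clones differed by 2.02 (SE 0.544, limma adjusted p = 0.0471), a call lost in 12 of 17 alternatives, among which the adjusted p ranged from 0.0157 to 0.56. It was lost without any 1 of replicates 1, 2 and 3 of clone 4.1 (adjusted p = 0.104, 0.141 and 0.109 by limma) or of replicates 2 and 3 of clone 4.2 (0.196 and 0.266). Against WT, clone 4.1 was at 1.55 (SE 0.503, limma adjusted p = 0.191), and with the replicate number as a block, which these 2 groups support, the adjusted p was 0.000456. Clone 1.1 read 194, 96.5 and 38.4 TPM, across the WT range. Clone 1.2 read 32.6, 14.5, 31.7 and 22.6 TPM, each below the lowest WT library, with a difference of -1.39 (SE 0.503) that did not pass (adjusted p = 0.107). Clones 1.1 and 1.2 differed by 1.85 (limma adjusted p = 0.0336), a call lost in 9 of 17 alternatives. Among these were leaving out replicate 1 or 2 of clone 1.1 (adjusted p = 0.112 and 0.111 by limma) and replicate 2, 3 or 4 of clone 1.2 (0.0664, 0.0504 and 0.0785). Ordered by mean, A375 clone 4.1 was highest of the 11 groups and WM115 clone 1.1 lowest, and the ranges of each pair of neighbours in that order overlapped.

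Transcripts from different STRA6 starts contributed. STRA6-202, which starts at position 74202879, made up 38.4% to 68.3% of the transcript sum in the 11 groups. STRA6-201, which starts upstream at 74209030, reached 43.1 ± 26.8 TPM (SD, n = 4) in A375 clone 4.1, or 21.1% of the gene, and 23.7% in clone 1.2, against 12.7% in A375 WT and 2.49% in clone 1.1. In WM115 its group means stayed at or under 0.604 TPM, so the higher STRA6 of the WM115 clones was read from other transcripts. The stretch just upstream of STRA6-202 is shown because that transcript led in the groups where STRA6 was high. It is RefSeq sequence of GRCh38.p14, chr15:74202880-74203037, written 5′ to 3′ on the minus strand. The capitals mark CTTTGT, which reads ACAAAG on the other strand, a letter match to a SOX core motif whose first base is at -111 from the RefSeq start at 74202787.

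STRA6: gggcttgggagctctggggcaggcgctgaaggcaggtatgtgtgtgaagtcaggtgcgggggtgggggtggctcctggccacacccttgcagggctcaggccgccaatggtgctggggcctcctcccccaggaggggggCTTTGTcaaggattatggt

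Such matches are common. The SOX core ACAAAG, or its variant with the letters ACAATG, occurred on either strand in 24.5% of the 34943 RefSeq promoter windows of 300 bases, and in 7 of the 22 windows of the 9 genes. The match describes the letters in this window and does not show binding.

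**Figure D3:**
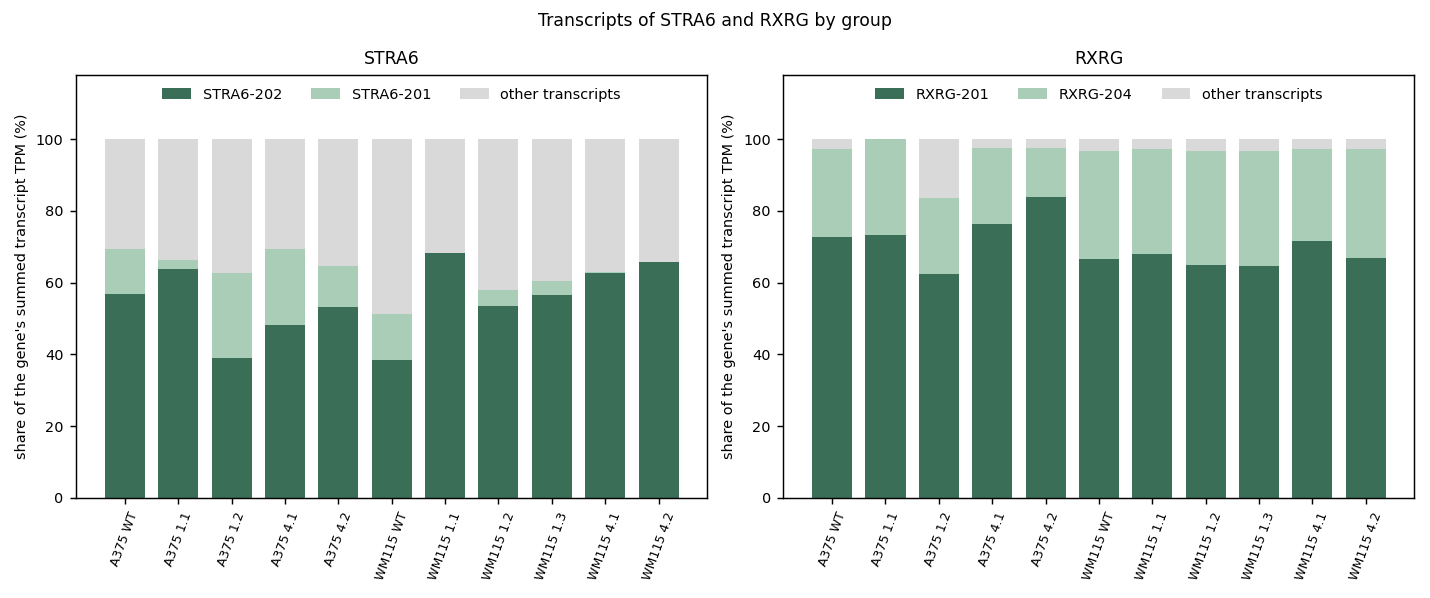
Share of the gene's transcript TPM (percent, y axis) taken by STRA6-202 and STRA6-201 and by RXRG-201 and RXRG-204 in each of the 11 groups, from group mean TPM. RXRG-201 kept between 62.3% and 84.0% of RXRG in all groups, whereas STRA6-201 ranged from 0% in WM115 clones 1.1 and 4.2 to 23.7% in A375 clone 1.2; shares in groups with little STRA6 rest on very low values.

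CRABP2, the carrier of retinoic acid to its receptors (chr1:156699606-156705816, minus strand), stood above the WT range in all libraries of 4 of the 5 WM115 clones. How many of all genes separated from WT in this way was not computed. WM115 WT read 1.38, 0.958, 1.26 and 1.90 TPM. Clone 4.2 read 10.4, 26.4 and 3.32 TPM, which made it the 1 clone with a called difference (2.23, SE 0.486, limma adjusted p = 0.00414, called in 15 of 17 alternatives and lost with the replicate block, at 0.0821, and within 1 mitochondrial-share set, at 0.0549). Clone 4.1 read 4.65, 3.92 and 5.59 TPM, a difference of 1.27 with an adjusted p of 0.0643. It was called with a pseudocount of 0.1 (limma adjusted p = 0.0407), under quantile normalization (0.0477), with only the 2 groups fitted (0.00326) and with the replicate block (0.0333). The rest of the 17 alternatives did not call it, and the limma adjusted p reached 0.376 among them. For the block, these libraries share only a number with WT. Clone 1.1 read 2.22, 6.06, 2.65, 2.04 and 2.93 TPM, and clone 1.2 read 3.64, 5.37 and 2.26 TPM. Each of these 4 clones stood wholly above WT, but clones 1.1 and 1.2 did not pass the test (adjusted p = 0.217 and 0.16). Clone 1.3 read 7.12, 7.21 and 1.404 TPM and overlapped WT, and without its replicate 3 it was called (1.79, limma adjusted p = 0.0401).

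In A375 CRABP2 varied among libraries of a single group. WT read 3.31, 30.7, 3.35 and 1.26 TPM, so that its mean of 9.66 ± 14.1 (SD, n = 4) was set by replicate 2. Clone 4.1 had the same shape, with 6.56, 29.4, 3.58 and 2.72 TPM. Clone 1.1 read 1.07, 0.752 and 0.363 TPM, below every WT library, with a difference of -1.83 (SE 0.8) that did not pass (adjusted p = 0.448). Clone 1.2 read 18.6, 2.89, 12.0 and 12.997 TPM. The R1 clones differed by -2.67 (SE 0.8, limma adjusted p = 0.0364), a call lost in 9 of 17 alternatives. Leaving out replicate 2 or 3 of clone 1.1 (adjusted p = 0.105 and 0.109 by limma) or replicate 1, 3 or 4 of clone 1.2 (0.0914, 0.0825 and 0.0929) ended it. Clone 4.2 (4.24, 1.65 and 1.198 TPM) overlapped WT.

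DHRS3, which returns retinal to retinol and limits the supply of retinoic acid (chr1:12567910-12617731, minus strand), was among the more abundant of the 9 genes. A375 WT read 80.2, 93.3, 90.5 and 58.3 TPM and WM115 WT 222, 159, 130 and 200 TPM, a log2 difference of 1.13 for WM115 (SE 0.208, limma adjusted p = 0.00159), or 0.98 without A375 WT replicate 4. In WM115 clone 1.1 the 5 libraries read 116, 68.0, 103, 80.7 and 113 TPM, all below the lowest WT library. The difference was -0.88 (SE 0.233, limma adjusted p = 0.0121), past the adjusted p but under the minimum size for a call, and -1.02 (adjusted p = 0.00755) without WT replicate 3. Clone 1.2 read 138, 190 and 218 TPM, within the WT range, and the R1 clones differed by -0.91 (SE 0.254, limma adjusted p = 0.0094), again under the minimum size, and by -1.10 without replicate 1 of clone 1.2. Clones 1.3, 4.1 and 4.2 overlapped WT, with differences between -0.18 and 0.05.

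DHRS3-204 was the main transcript, with 80.7% to 93.5% of the transcript sum. The shorter DHRS3-202 held 14.4% in WM115 WT, 16.5% in clone 1.3 and 2.74% in clone 1.1, at 25.7 ± 5.69 (SD, n = 4), 30.4 ± 29.8 (n = 3) and 2.63 ± 1.99 TPM (n = 5). In A375 the DHRS3 ranges of clones 1.1 (28.4 to 88.0 TPM), 1.2 (62.8 to 116), 4.1 (79.0 to 131) and 4.2 (34.95 to 87.9) overlapped WT, and no difference from WT passed.

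Several of these genes were high in the same libraries. In A375 clones 1.1 and 4.2, replicate 1 had the highest RXRG, STRA6, DHRS3 and CRABP2 of its clone. The summed melanocytic markers were ordered likewise, at 1654, 938 and 564 TPM in the libraries of clone 1.1 and 1681, 1089 and 787 TPM in those of clone 4.2, against 1139 to 1991 TPM in A375 WT. The part of this in the differences from WT was not tested.

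RARB, the retinoic acid receptor whose own promoter carries a textbook retinoic acid response element (gene chr3:25174332-25597932, plus strand), moved most among the RAR genes. WM115 WT read 6.86, 5.88, 2.90 and 4.83 TPM. Clone 1.2 read 12.4, 13.5 and 21.2 TPM, each above every WT library. Its mean of 15.7 ± 4.82 (SD, n = 3) was 3.07 times the WT mean, and the log2 difference of 1.46 (SE 0.255, limma adjusted p = 0.00112) was called in 16 of 17 alternatives. Clone 1.1 went to the other side, with 3.08, 2.56, 2.75, 2.98 and 3.65 TPM and a difference of -0.57 (adjusted p = 0.0751). The difference between the R1 clones was -2.03 (SE 0.244, limma adjusted p = 1.08e-05), called in 18 of 18 alternatives, so that the clones labelled with the same deletion differed beyond the spread of their libraries. Clone 4.1 read 2.43, 2.40 and 2.46 TPM, below every WT library, at -0.79 (SE 0.255, limma adjusted p = 0.0316), under the minimum size. Clone 4.2 (2.53, 2.29 and 4.07 TPM) and clone 1.3 (5.32, 11.9 and 6.04 TPM) overlapped WT.

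RARB was scarce in A375. WT read 0.827, 1.35, 1.32 and 0.476 TPM, and WM115 WT was higher by 1.60 (SE 0.248, limma adjusted p = 0.000577). Clone 1.1 read 0.374, 0.068 and 0.061 TPM, each below WT, with a difference of -0.76 (SE 0.2) that did not pass (adjusted p = 0.0907). The other A375 clones overlapped WT, between 0.230 and 1.36 TPM.

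RARB-201, which starts at 25428311, held 66.8% to 100% of the RARB transcript sum in the 11 groups. The window upstream of the RefSeq start at 25428263 is shown because the RARB change in WM115 clone 1.2 was read mainly from this transcript (10.7 ± 4.35 TPM, SD, n = 3, against 3.99 ± 1.65, n = 4, in WT). It is RefSeq sequence of GRCh38.p14, chr3:25428013-25428262, plus strand. The capitals mark 17 bases from position -53 relative to that start, a direct repeat of the hexamers GGTTCA (upstream) and AGTTCA (downstream) with 5 bases between them, the DR5 arrangement bound by RAR and RXR pairs.

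RARB: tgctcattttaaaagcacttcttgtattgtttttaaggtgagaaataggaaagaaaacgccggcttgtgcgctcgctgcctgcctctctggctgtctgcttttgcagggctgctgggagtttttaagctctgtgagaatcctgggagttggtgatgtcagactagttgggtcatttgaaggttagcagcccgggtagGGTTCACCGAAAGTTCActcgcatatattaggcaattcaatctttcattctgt

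This arrangement is rare. A DR5 built from the canonical hexamer AGGTCA or from its variants (GGGTCA for the start, AGTTCA for the middle, GGTTCA for both) was found on either strand in 31 of 34943 promoter windows (0.0887%), and in 1 of the 22 windows of the 9 genes. The same hexamers spaced by 1 base (0.132% of windows) or 2 bases (0.0372%) were in none of the 22, while a single hexamer was in 38.6% of all windows and in 11 of the 22. No match says only that these letters are not in those windows.

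RARG and RARA, the more abundant RAR genes, kept close to WT. RARG (chr12:53210567-53232980, minus strand) read 52.9, 50.2, 44.9 and 50.8 TPM in A375 WT and 85.9, 74.9, 72.9 and 74.6 TPM in clone 4.1, all above WT. The difference of 0.62 (SE 0.136, limma adjusted p = 0.0295) was under the minimum size, and the adjusted p ranged from 0.00346 to 0.395 over the alternatives. In WM115, RARG was wholly below WT (35.3 to 44.9 TPM) in clones 1.2 (28.0 to 33.7) and 4.2 (19.3 to 34.1), at -0.37 and -0.60, without passing (adjusted p = 0.228 and 0.0555). RARA (chr17:40309192-40357643, plus strand) ranged from 26.3 to 63.9 TPM in A375 and from 23.1 to 58.8 TPM in WM115, overlapped WT in all 9 clones, and had differences from WT between -0.32 and 0.32.

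RXRG (chr1:165400917-165445355, minus strand) was lower than WT in 3 of the 4 A375 clones. WT read 29.9, 35.8, 50.2 and 19.4 TPM. Clone 1.1 read 4.34, 2.14 and 0.488 TPM and clone 1.2 read 0.952, 0.365, 0.720 and 1.26 TPM, so that all 7 R1 libraries lay below every WT library, at group means 0.0687 and 0.0244 times the WT mean and log2 differences of -3.50 and -4.20 (the values that chose the gene). Clone 4.2, which lacks the other region, read 6.59, 4.46 and 1.85 TPM, a mean 0.127 times that of WT. Its difference of -2.75 (SE 0.386, limma adjusted p = 0.000998) was called whichever 1 library was left out, but not within the libraries of low mitochondrial share (-2.62, adjusted p = 0.231). Clone 4.1, with the same labelled deletion, read 38.3, 40.5, 41.0 and 42.3 TPM, within the WT range, and the R4 clones differed by 3.08 (SE 0.386, limma adjusted p = 0.000189), a call lost with the replicate block (adjusted p = 0.0932) and within 1 mitochondrial-share set (0.0581). SOX10 itself differed less: -0.45 in clone 1.1 (limma adjusted p = 0.286), -0.62 in clone 1.2 (0.0135), 0.18 in clone 4.1 (0.794) and -0.30 in clone 4.2 (0.658).

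WM115 had more RXRG than A375, with WT libraries at 105, 107, 64.5 and 104 TPM and a WT difference of 1.51 (SE 0.277, limma adjusted p = 0.00151). Clone 4.1 read 36.8, 18.2 and 34.5 TPM and clone 4.2 read 33.2, 29.5 and 40.6 TPM. All 6 R4 libraries were thus below the lowest WT library, at 0.313 and 0.362 times the WT mean. The differences of -1.68 (SE 0.814) and -1.42 (SE 0.814) did not pass (limma adjusted p = 0.142 and 0.225) in the fit that shares its spread with clone 1.2. Without replicate 3 of clone 1.2, an alternative chosen after seeing the data, the adjusted p values were 0.000245 and 0.00122, and with only the 2 groups compared they were 0.00575 and 0.00597.

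That library also set the value of WM115 clone 1.2, which read 37.1, 56.0 and 0.138 TPM. The called difference of -2.80 (SE 0.814, limma adjusted p = 0.0207) became -1.02 (adjusted p = 0.0541) without replicate 3, the library in which SOX10 was also lowest. SOX10 in clone 1.2 was at -2.44 (limma adjusted p = 0.0192), or -0.87 (0.0123) without that library. Clone 1.1 stayed at WT level with 103, 83.6, 90.8, 89.2 and 103 TPM (difference 0.00), and the R1 clones differed by 2.81 (SE 0.779, limma adjusted p = 0.00938), a call kept when any 1 library was left out, though at 1.02 (0.0193) without replicate 3 of clone 1.2. It was lost with only the 2 groups fitted (adjusted p = 0.0836 by limma), with the replicate block (0.186) and within 1 mitochondrial-share set (0.118). Clone 1.3 read 72.3, 47.8 and 110 TPM. Ordered by mean, the groups ran from WM115 WT and clone 1.1 at the top to A375 clones 1.1 and 1.2 at the bottom, and neighbours in that order had separate ranges at 2 of 10 steps, from WM115 clone 1.3 to A375 clone 4.1 and from WM115 clone 4.1 to A375 clone 4.2. The transcript make-up of RXRG changed little with its level: RXRG-201 held 62.3% to 84.0% and RXRG-204 13.6% to 32.1% of the transcript sum.

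RXRA (chr9:134317098-134440585, plus strand) and RXRB (chr6:33193588-33200688, minus strand), the widely expressed RXR genes, varied less than RXRG. RXRA ranged from 7.05 to 16.5 TPM in A375 and from 6.80 to 13.2 TPM in WM115. RXRB differed between the WT lines by 0.73 (SE 0.117, limma adjusted p = 0.000674), at 20.7 ± 0.585 TPM in A375 and 35.2 ± 2.99 TPM in WM115 (SD, n = 4 each), under the minimum size. In WM115 clone 4.1 it read 25.2, 27.2 and 27.7 TPM against 39.6, 33.5, 33.2 and 34.4 TPM in WT, a difference of -0.38 (SE 0.105, limma adjusted p = 0.0137), also under the minimum size. In clone 4.2 both genes were wholly below WT, RXRA at 0.740 times and RXRB at 0.855 times the WT mean (-0.40 and -0.22, limma adjusted p = 0.05 and 0.148). In clone 1.2 RXRA was wholly below WT at 0.778 times (-0.34, limma adjusted p = 0.0907). These are clones in which RXRG was also wholly below WT. No RXRA or RXRB difference from WT was called in any of the 9 clones. Over the 11 group means, Pearson's r of RXRG was -0.32 with RXRA and 0.64 with RXRB, values that mix the line difference with the clone differences and carry no test.

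The make-up of the receptor families moved with these genes. Of the summed RXR genes, RXRG held 49.4% ± 11.3 (SD, n = 4) in A375 WT and 57.1% in clone 4.1, against 6.09% in clone 1.1, 2.41% in clone 1.2 and 11.3% in clone 4.2. The RXR sum was 66.6 ± 10.6 TPM in A375 WT and 36.6 ± 4.18, 34.1 ± 3.49 and 38.2 ± 3.04 TPM in those 3 clones, since RXRA and RXRB stayed near WT. In WM115, RXRG held 66.7% ± 5.64 of the sum in WT and 68.1% in clone 1.1, against 43.0% in clone 4.1, 47.2% in clone 4.2 and 0.330% to 56.3% in the 3 libraries of clone 1.2. RARB remained a minor share of the RAR sum, at 0.185% to 1.1% by group in A375, 6.33% ± 1.86 in WM115 WT and 21.2% ± 7.08 in WM115 clone 1.2. The RAR sums themselves ranged from 82.4 to 126 TPM by group in A375 and from 70.3 to 83.0 TPM in WM115.

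**Figure D4:**
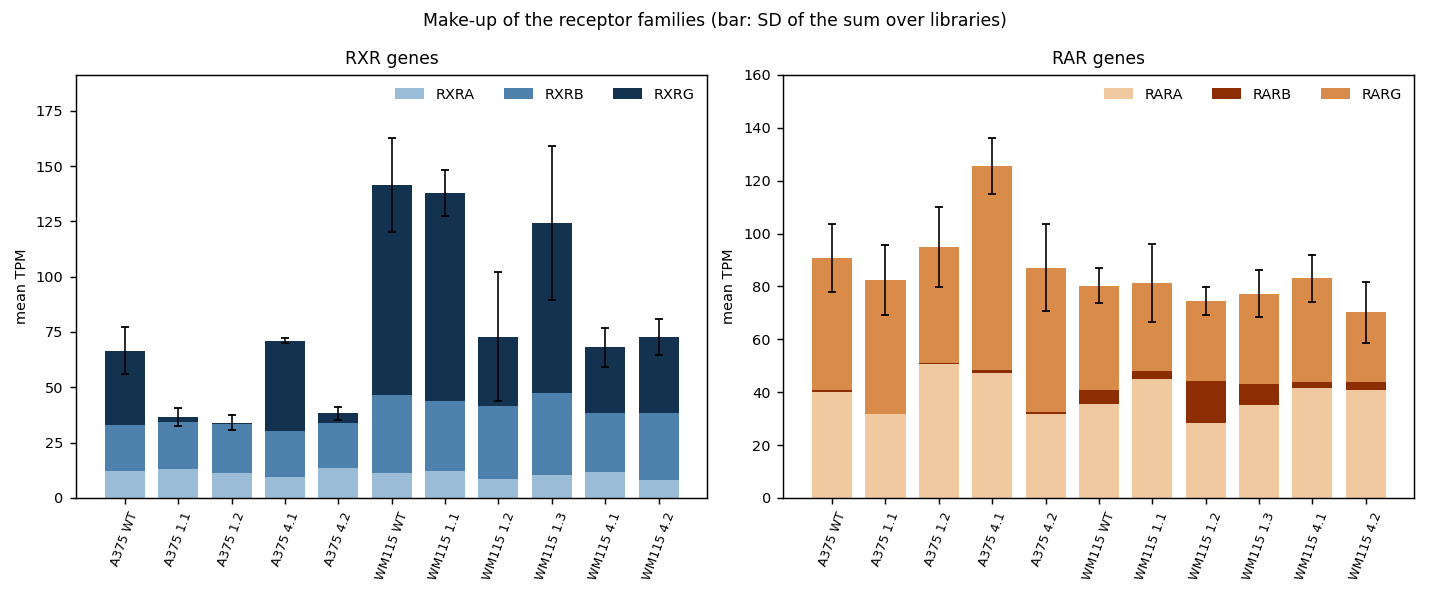
Mean TPM of the RXR genes and of the RAR genes stacked by group (y axis, TPM from 0; error bar = SD of the family sum). RXRG makes up most of the difference between the RXR sums of A375 WT (66.6 TPM) and clone 1.2 (34.1 TPM), while RARB is visible in WM115 and largest in clone 1.2.

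Genes around the 9 were followed through 4 lists: 43 genes of retinoid supply and metabolism, 16 receptors that pair or compete with RXR, 16 coregulators and 25 retinoic acid response genes. In WM115 clone 1.2, 6 of 19 tested response genes were called higher and 0 lower, beside 4.49% of all genes called higher, with a median log2 difference of 0.52 against -0.02 over all genes. In clone 1.1, 0 were higher and 4 of 19 lower, beside 3.66% of all genes called lower, with a median of -0.41 against -0.12. Between these clones, 1 response gene was higher and 9 lower in clone 1.1, where 11.8% of all genes were called. Without replicate 3 of clone 1.2 the 6 became 2, TGM2 among them, and the share of all genes called in that fit was not recorded. In clones 1.3, 4.1 and 4.2, 1, 2 and 2 of 19 were higher and 0, 0 and 1 lower, beside 0.618%, 7.57% and 6.6% of all genes called. In A375, 2 of 15 were higher and 1 lower in clone 1.2 (4.01% of all genes), and 0 were called in clones 1.1, 4.1 and 4.2 (0.731%, 0.653% and 0.473%).

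TGM2, a transglutaminase induced by retinoic acid in many cells, rose in WM115 clone 1.2 by 2.22 (limma adjusted p = 0.00266), fell in WM115 clone 1.1 by 1.15 (0.0402, lost in 7 of 9 fits that left out 1 library) and rose in A375 clone 1.2 by 2.59 (0.00208). RARRES2, which encodes the chemokine chemerin, was listed at 0 in the 4 WM115 WT libraries and ranged from 0.527 to 20.4 TPM in clone 1.2. It met the test filter only through libraries of clones 1.2 and 1.3. Its call in clone 1.2, which is in the count of response genes above, was thus favoured by the filter. EGR1, an immediate early transcription factor, was at -1.99 in A375 clone 1.2 (limma adjusted p = 0.0128), a call lost in 1 of 8 such fits (without WT replicate 3).

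Among supply genes, 2 of 23 were called higher and 2 lower in WM115 clone 1.2, where 7.61% of all genes were called in either direction. The retinal reductase AKR1B10 rose by 1.74 (limma adjusted p = 0.0102), and ALDH1A2 and ALDH1A1, which make retinoic acid, fell by 1.54 (0.0143) and 1.34 (0.00852). In clone 4.2 (6.6% of all genes), 2 of 23 were higher and 3 lower, with ALDH1A2 at -1.30 and ALDH1A1 at -1.197 among the latter, calls lost in 5 and 2 of 7 fits that left out 1 library. Without replicate 3 of clone 1.2, 1 supply gene was called in clone 1.2, with the share of all genes not recorded. AKR1B10 was then at 1.28, ALDH1A2 at -1.39 and ALDH1A1 at -1.19 (limma adjusted p = 0.1, 0.0902 and 0.0663). WM115 clone 1.1 had 0 higher and 2 lower (4.88% of all genes), clone 1.3 had 1 and 0 (0.618%), and clone 4.1 had 1 and 1 (7.57%). In A375, 1 of 17 was higher in clone 1.2 (4.01% of all genes) and 2 in clone 4.1 (0.653%), RDH5 in both and ALDH1A3 in clone 4.1 (named after their values were seen), and 0 were lower in any clone.

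Of the receptors that share RXR or its sites, 3 of 13 rose and 1 fell in WM115 clone 1.2, beside 7.61% of all genes called. These were PPARG, the fatty acid receptor of adipocytes (2.46, limma adjusted p = 0.00124), NR2F1, an orphan receptor of the neural crest (2.02, 0.00122), and THRB, a thyroid hormone receptor (1.80, 0.000729), with NR4A2 at -1.48 (0.0264), or -0.56 (0.194) without replicate 3. PPARG read 13.4 ± 1.95 TPM (SD, n = 4) in WM115 WT and 81.3 ± 33.3 (n = 3) in clone 1.2. In clone 1.1 THRB fell by 1.03 and NR4A2 rose by 1.33, calls lost in 4 and 1 of 9 fits that left out 1 library (4.88% of all genes called). In clones 1.3, 4.1 and 4.2, 0 of 13 were called, beside 0.618%, 7.57% and 6.6% of all genes. In A375, NR2F1 in clone 1.2 (1.31, limma adjusted p = 0.000909) was the 1 of 14 called in any clone, beside 4.01% of all genes. Of 15 coregulators, PRAME, TBL1X and NRIP1 were called higher in WM115 clone 1.2, by 3.33, 1.63 and 1.09. PRAME was also called in clone 4.1, by 2.75 (7.57% of all genes called there). PRAME was at most 0.414 TPM in WM115 WT and met the test filter only through clone libraries, which favoured its calls. In A375, 0 coregulators were called, beside 0.473% to 4.01% of all genes per clone. NRIP1 was at 0.92 (limma adjusted p = 0.0908) without replicate 3 of clone 1.2. PRAME is known as a repressor of RAR signalling.

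**Figure D5:**
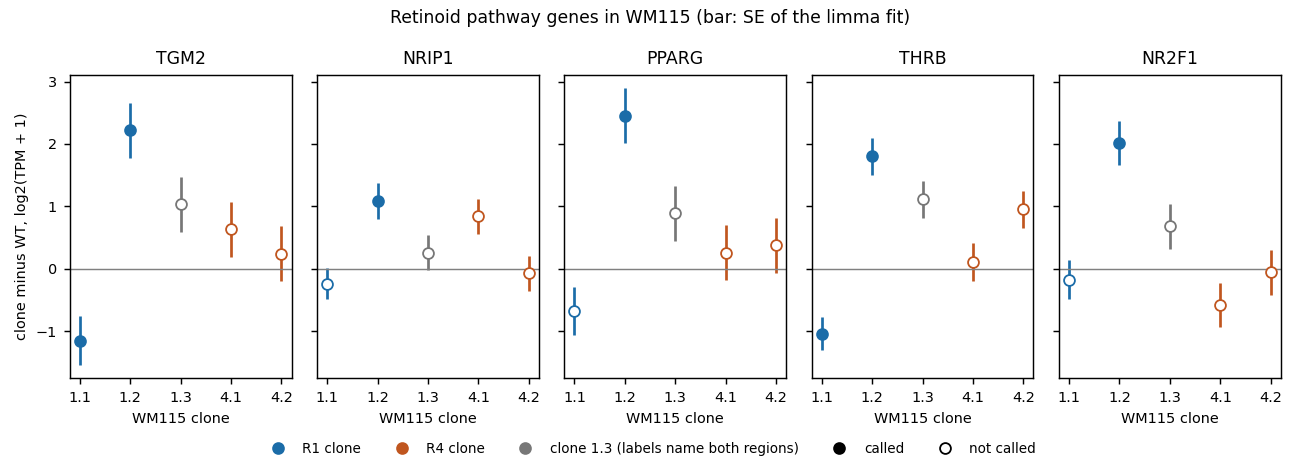
Log2 difference from WM115 WT (y axis, log2(TPM + 1) scale, bar = standard error) of TGM2, NRIP1, PPARG, THRB and NR2F1 in the 5 WM115 clones; filled points were called. TGM2 lies at -1.15 in clone 1.1 and at 2.22 in clone 1.2, on either side of WT.

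Between the WT lines, limma called 4 of the 9 genes (STRA6, RARB, RXRG and DHRS3), where 22.7% of all genes were called. The 3 higher in WM115 were RARB, RXRG and DHRS3, and STRA6 was lower. The STRA6 and RXRG calls use WT libraries that also served in choosing these genes. CRABP2 differed by -1.36 (SE 0.667), RARG by -0.32 and RARA and RXRA by -0.13 and -0.09, none of which passed (limma adjusted p = 0.119, 0.0618, 0.588 and 0.695), though without A375 WT replicate 4 CRABP2 was called (-1.84, 0.0402). These tests compare 4 libraries of each line and describe these cultures.

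With the clone as the unit, so that 2 clones of a region stood against WT or against the other region, limma called 0 of the 9 genes and 0 of all genes in each of the 8 comparisons, interactions of region and line included. At an unadjusted p under 0.05 there were 0 to 2 of the 9 per comparison, the values that chose the genes included, beside 0.264% to 6.77% of all genes. The lowest adjusted p among the tested members against WT was that of CRABP2 in WM115 R4 clones (1.75, SE 0.489, adjusted p = 0.621). STRA6 in WM115 R4 clones (4.07, SE 1.31) and RXRG in A375 R1 clones (-3.85, SE 1.17) are the values that chose the genes. The differences above are thus differences of named clones from WT, and the deletion and the clone cannot be told apart by the tests over libraries.

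Genes whose pattern over the 11 group means lay closest to these, among 18413 genes, are given by Pearson's r without a test. For RXRG they were AC092902.5 (0.969), LSAMP (0.968), which encodes a neural cell adhesion protein, and AC068587.5 (0.952), while r with SOX10 was 0.087. That value pools the lines. Within A375, median SOX10 was 760, 697, 541, 491 and 446 TPM in clone 4.1, WT and clones 4.2, 1.1 and 1.2. Median RXRG fell in the same order, from 40.7 to 0.836 TPM. In WM115 the orders differed, with medians of 405 (SOX10) and 90.8 TPM (RXRG) in clone 1.1 and 438 and 33.2 TPM in clone 4.2. A link within a line was not tested. For STRA6 they were STX1A (0.973), PHC2 (0.972) and UHRF1BP1L (0.965). For CRABP2 they were DDX50 (0.909), AC106897.1 (0.885) and SENP8 (0.877), and for DHRS3 CIRBP (0.981), AC010186.2 (0.972) and AC254633.1 (0.970). Groups of the same line share their background, which such values include.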

How the data were processed

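The authors deposited 1 gene table and 1 transcript table of TPM for 39 poly-A RNA-seq libraries, made with DRAGEN on GRCh38, per the submitters' processing notes; the annotation release is not given in the sources used here. Read counts were not used, so depth is unknown and no counting interval was computed. The gene table holds 60871 lines and 60671 identifiers (repeats used once), and its TPM sum to 999999.9 to 1000000.1 per library. The transcript table holds 173728 identifiers. Each holds 6 columns that match no sample and were not used. Positions are from GENCODE 29, which placed 58453 identifiers, and promoter sequences are from RefSeq on GRCh38.p14, with 22 windows matched to the 9 genes.

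Samples were grouped by line and clone. log2(TPM + 1) was tested per line with limma 3.58.1 in R 4.3.3 (1 coefficient per group, trended variance, two-sided, Benjamini-Hochberg adjustment) over genes at 1 TPM or more in at least 3 libraries: 16692 in A375, 16997 in WM115, 16126 for WT against WT and 15287 for the interaction. Tables and figures used Python 3.11.15, pandas 2.3.3, numpy 2.4.6 and matplotlib 3.10.9. On simulated data with 100 genes shifted by 1.5 and 100 by 3 (log2), 91% and 99% were called in A375 clone 1.1 over 16692 genes and 83% and 100% in WM115 clone 1.1 over 16997 genes, with 2 false calls each.

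The members and lists were chosen with earlier results of these data known. The text names the 9 members, up to 4 genes per list with the largest called difference in any clone, SOX10, and the 3 genes closest in pattern to 4 members. Of the genes so chosen, 1 is not reported here; it stays in the counts of its lists. Replicate numbers from the titles were taken to pair A375 clone 4.1 with WT, since same-numbered libraries deviated together in all 4 pairs (r 0.326 to 0.776); no other clone met this. Alternatives were the pseudocount (0.1), filters, scalings, the groups fitted, a replicate block, the mitochondrial share and leaving out each library.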

Additional observations from a re-analysis of the deposited data

Results flagged for a closer look

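In 45 sets of 4 to 5 libraries (1 gene in 1 group), the highest or lowest library was compared with the rest by Dixon's ratio, and 5 sets had a library standing apart; chance flags about 1 in 20 groups. RXRG in WM115 WT was low in replicate 3 (64.5 TPM). RARG in A375 clone 4.1 was high in replicate 1 (85.9 TPM). CRABP2 was high in replicate 2 of A375 WT (30.7 TPM), in replicate 2 of A375 clone 4.1 (29.4 TPM) and in replicate 2 of WM115 clone 1.1 (6.06 TPM), so that 3 of the 5 concern this gene.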

How the results depend on the processing

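The numbers of members called per clone against WT were recomputed under each alternative: 171 values stayed within 1.5 times and 22 did not. A pseudocount of 0.1 gave 2 for A375 clone 1.1 (1 in the report) and 2 for WM115 clone 4.1 (1). Without a minimum difference the numbers were 1 for A375 clone 4.1 (0), 1 for WM115 clone 1.1 (0) and 3 for WM115 clone 4.1 (1). WM115 clone 4.1 also had 2 under quantile normalization and 3 with only its own libraries and WT fitted, and WM115 clone 4.2 had 1 (2 in the report) among genes with a mean of at least 5 TPM. Within the libraries of 1 mitochondrial-share set, which are fewer, the numbers were 0 for A375 clones 1.1 and 4.2 and WM115 clone 4.1, and 1 for WM115 clone 4.2. The cause was not tested for the others.

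With the replicate number as a block, the numbers were 0 for A375 clone 1.1, 1 for A375 clone 4.1, 0 for A375 clone 4.2, 0 for WM115 clone 1.2, 2 for WM115 clone 4.1 and 1 for WM115 clone 4.2; outside A375 clone 4.1 the libraries share only a number. RXRG in A375 clone 4.2 was then at -2.98 (adjusted p = 0.218).

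Leaving out 1 library at a time, the numbers ranged from 1 to 1 in A375 clones 1.1, 1.2 and 4.2 and from 0 to 0 in A375 clone 4.1. In A375 clones 1.1 and 1.2 the gene counted was RXRG, whose values there chose it, so these 2 ranges are no test. In WM115 they ranged from 0 to 1 in clone 1.1 (1 without WT replicate 3), from 1 to 3 in clone 1.2 (1 without its replicate 3), from 0 to 1 in clone 1.3 (1 without its replicate 3), from 1 to 2 in clone 4.1 and from 2 to 3 in clone 4.2. Without replicate 3 of WM115 clone 1.2, clone 4.1 had 2. The counts of WM115 clones 4.1 and 4.2 take in STRA6, whose values there chose it, so for that gene they are no test. Among single members, 2108 values kept their status, 47 lost a call, 24 gained one and 3 moved. The 2108 include values that were not called in either fit. Unknown depth limits what can be said of genes near 1 TPM, such as RARB in A375.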
